A study of Mus musculus with 7 samples.

Results

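The proteasome genes of mouse B-cell acute lymphoblastic leukaemia (B-ALL) are described here across 5 RNA-sequencing libraries. Gene names that begin with Psma to Psmg and go on with a digit were taken, apart from the immunoproteasome subunits Psmb8, Psmb9 and Psmb10. This gave 47 of the 24726 entries of the deposited tables: 8 alpha-ring and 8 beta-ring subunits of the core particle, 6 ATPases and 11 other subunits of the regulatory particle, 7 assembly factors, 6 activators and inhibitors, and Psmc3ip. The last matches by name alone, since it encodes a partner of meiotic recombination and is no part of the proteasome.

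All 5 leukaemias were of the C57BL/6 strain, and polyadenylated RNA was sequenced. In 3 libraries, called Pax5-Etv6 B-ALL, the genotype was Cdkn2ab+/-Pax5Etv6/+. In this genotype 1 Pax5 allele encodes the Pax5-Etv6 fusion protein and 1 copy of the Cdkn2a-Cdkn2b tumour suppressor locus is missing. Whether the leukaemia cells kept the other copy is not stated in the labels. These 3 libraries came from whole lymph node taken directly from the animal. The 2 control B-ALL libraries had the genotype Trp53-/- NrasG12D/+Retroviral-Myc, that is, no Trp53, an activated Nras allele and a Myc gene carried by retrovirus, and were made from bone marrow, unsorted, that had been cultured briefly. Tissue, culture and cDNA protocol followed the groups and cannot be told apart from the genotype. In such bulk samples, fewer cells of a type and less RNA per cell cannot be told apart either. Whether each library stands for its own animal is not stated in the labels; the p-values therefore rest on the spread between these samples, which may be technical.

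The libraries held 20110584 to 50994548 reads, recovered from the deposited values as lower bounds, and a tested proteasome gene had at least 38 reads in every library. Levels are given in TPM, the share of transcripts in a library scaled to a fixed total, a unit that is corrected for gene length and so can be compared between genes. Trp53 had 486, 454 and 489.9 TPM in Pax5-Etv6 replicates 1, 2 and 3 and 11.3 and 20.5 TPM in control replicates 1 and 2, and Myc had 286 to 387 TPM against 1544 and 2095 TPM. B-lineage genes were expressed in every library: the B-cell receptor component Cd79b had 2917 to 3672 TPM in Pax5-Etv6 B-ALL and 630.0 and 1000.0 TPM in the controls, its partner Cd79a had 1421 to 3597 TPM against 814 and 1138 TPM, and the B-lineage factor Pax5 had 203 to 251 TPM against 200.2 and 252 TPM. Ebf1 had 260 to 369 TPM against 137 and 151 TPM. Cd22 was uneven, with 184, 38.1 and 22.1 TPM in Pax5-Etv6 replicates 1, 2 and 3 against 118 and 169 TPM, and the groups overlapped. Markers of other cells were present mostly in Pax5-Etv6 B-ALL: 11 macrophage markers summed to 177, 595 and 216 TPM against 21.5 and 69.2 TPM, 8 neutrophil markers to 34.2 to 253 TPM against at most 0.622 TPM, 6 stromal and endothelial markers to 312 to 989 TPM against 80.4 and 91.5 TPM, and 7 T-cell markers to 4.99 to 37.1 TPM against at most 0.334 TPM. Of the T-cell sum, Thy1 made 2.50, 23.1 and 32.7 TPM in Pax5-Etv6 replicates 1, 2 and 3. Cd3d, Cd3e and Cd3g had at most 0.637 TPM in any library. In the controls the stromal and endothelial sum was mainly Pecam1 (76.9 and 79.9 TPM), which had 233, 222 and 293 TPM in Pax5-Etv6 B-ALL. Col1a1 had 45.6, 405 and 85.2 TPM against 0.634 and 3.93 TPM. Cdh5 overlapped between the groups, at 0.533 to 8.45 against 2.26 and 3.87 TPM. Vsig4 and the globins Hbb-b1 and Hba-a1 were listed at 0 in all libraries, the erythroid sum of 13.1 to 75.7 TPM against at most 1.01 TPM came mainly from Alas2, and the 4 plasma-cell markers summed to 73.1 to 142 TPM against 66.5 and 75.9 TPM. At an adjusted p under 0.05, 6 of 9 tested macrophage, 8 of 8 neutrophil, 5 of 6 stromal, 2 of 2 tested T-cell (Cd4 and Thy1), 1 of 2 tested erythroid and 2 of 3 tested plasma-cell markers were higher in Pax5-Etv6 B-ALL and none was lower. Of all 11805 entries tested, 21.9% were higher and 29.7% lower. The part of other cells in the results was not tested.

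The proteasome degrades proteins that carry ubiquitin chains. Its core particle, the 20S, is a barrel of stacked rings: outer rings of alpha subunits form the gate, and inner rings of beta subunits hold the proteolytic sites. The regulatory particle, the 19S, caps the barrel with a ring of ATPases that unfold substrates and with further subunits that bind ubiquitin and remove it. Dedicated chaperones build both particles, and other activators can replace the regulatory particle. Since each ring holds its different subunits in equal numbers, mRNA levels of the subunits of 1 complex can be set side by side.

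Of the 47 genes, 45 had at least 1 TPM in at least 2 libraries and were tested, and all 45 had at least 1 TPM in all 5 libraries. In Pax5-Etv6 B-ALL 22 of them (48.9%) were lower and 8 (17.8%) were higher at a limma adjusted p under 0.05, against 29.7% lower and 21.9% higher of all 11805 entries tested. In all, 66.7% of the tested proteasome genes and 51.7% of all entries were called. The median log2 fold change (Pax5-Etv6 minus control, on log2(TPM + 1)) was -0.35 over the 45 genes and -0.11 over all entries. In 35 of the 45 genes (77.8%) the groups did not overlap, among them all 30 called genes, against 72.2% of all entries. Changes of 1 log2 unit or more were called in 12 lower and 3 higher genes of the 45, against 21.2% lower and 15.4% higher of all entries. The 3 higher ones were Psmb3, Psmc3ip and Psme2b. The 8 higher genes include Psmc3ip, and 3 of the 8 (Psmc3ip, Psme1 and Psme2b) have deposited names with a tag that reads as overlap with another gene. Their reads may be shared with that gene where the library does not keep the strand, and the labels call only the Pax5-Etv6 libraries strand-specific. All proteasome genes other than Psmc3ip summed to 11451, 11288 and 11608 TPM in Pax5-Etv6 B-ALL and to 13517 and 13558 TPM in the controls, so the groups did not overlap in the sum either.

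**Figure D1:**
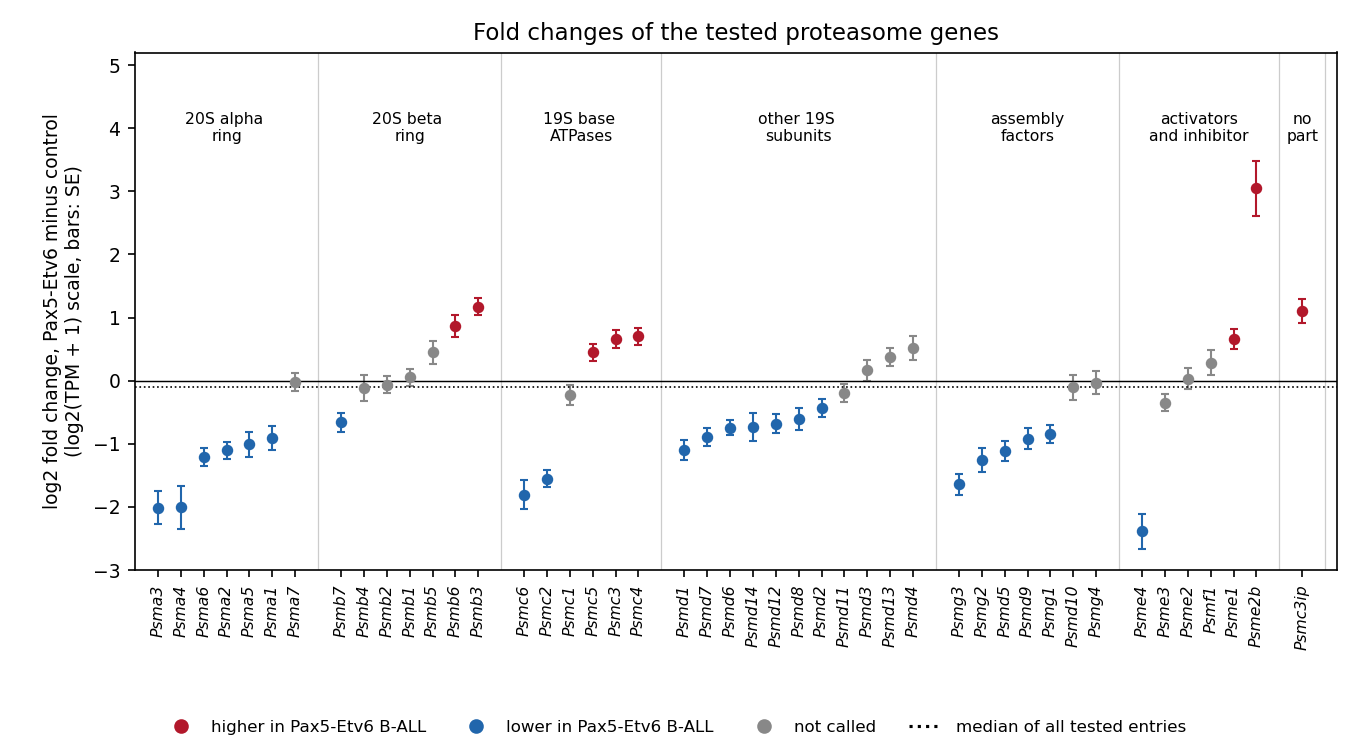
Log2 fold change (Pax5-Etv6 minus control B-ALL, log2(TPM + 1) scale) of the 45 tested genes, grouped by role, with SE bars from limma; red and blue points passed an adjusted p of 0.05, grey points did not, and the column marked "no part" is Psmc3ip. The alpha ring and the assembly factors hold blue and grey points and no red one, whereas the beta ring and the ATPases hold red, grey and blue points; the dotted line is the median of all tested entries, -0.11.

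The promoters printed next belong to the gene with the largest called fall in each role, Psma3 of the alpha ring, Psmc6 of the ATPases, Psmd1 of the other regulatory subunits, Psmg3 of the assembly factors and Psme4 of the activators (for Psmb7 no window was matched), and to Psmb3 and Psmb6 of the beta ring, which were higher. Promoters are RefSeq windows of build GRCm38.p6, 300 bases from 250 before the transcript start to 50 after it, written 5′ to 3′ along the gene in lower case. Capitals mark a match on either strand to 1 of 4 motifs: CCGGAAG, a core of ETS-family sites, the family of Etv6; CCAAT, bound by NF-Y; TGANNNNGC, a core of sites of Nfe2l1 (Nrf1), the activator of proteasome genes; and CACGTG, the E-box of MYC. The windows lie at chr12:70974373-70974672, plus strand, for Psma3, chr14:45329574-45329873, plus strand, for Psmc6, chr1:86064369-86064668, plus strand, for Psmd1, chr5:139826845-139827144, minus strand, for Psmg3, chr11:30771525-30771824, plus strand, for Psme4, chr11:97703184-97703483, plus strand, for Psmb3 and chr11:70525107-70525406, plus strand, for Psmb6.
Psma3: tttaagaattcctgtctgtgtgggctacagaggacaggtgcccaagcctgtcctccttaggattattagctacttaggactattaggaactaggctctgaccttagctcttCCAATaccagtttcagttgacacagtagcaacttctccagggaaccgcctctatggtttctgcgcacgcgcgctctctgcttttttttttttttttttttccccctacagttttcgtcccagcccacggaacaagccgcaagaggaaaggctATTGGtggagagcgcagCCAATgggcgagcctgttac
Psmc6: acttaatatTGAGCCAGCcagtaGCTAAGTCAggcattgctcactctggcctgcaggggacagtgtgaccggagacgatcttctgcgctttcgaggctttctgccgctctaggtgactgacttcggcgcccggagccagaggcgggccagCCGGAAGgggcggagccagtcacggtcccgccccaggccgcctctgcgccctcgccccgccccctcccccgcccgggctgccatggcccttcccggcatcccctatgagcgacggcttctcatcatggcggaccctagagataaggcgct
Psmd1: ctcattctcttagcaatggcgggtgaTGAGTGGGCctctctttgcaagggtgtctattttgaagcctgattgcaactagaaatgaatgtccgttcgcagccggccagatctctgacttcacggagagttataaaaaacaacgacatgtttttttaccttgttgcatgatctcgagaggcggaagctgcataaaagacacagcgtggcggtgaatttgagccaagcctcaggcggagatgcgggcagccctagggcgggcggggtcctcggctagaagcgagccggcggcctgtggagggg
Psmg3: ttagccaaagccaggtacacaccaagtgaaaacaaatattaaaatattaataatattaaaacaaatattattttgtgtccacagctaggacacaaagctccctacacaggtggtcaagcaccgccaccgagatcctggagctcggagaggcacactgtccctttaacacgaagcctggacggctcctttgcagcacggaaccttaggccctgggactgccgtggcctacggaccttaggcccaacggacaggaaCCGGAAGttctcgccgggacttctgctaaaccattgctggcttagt
Psme4: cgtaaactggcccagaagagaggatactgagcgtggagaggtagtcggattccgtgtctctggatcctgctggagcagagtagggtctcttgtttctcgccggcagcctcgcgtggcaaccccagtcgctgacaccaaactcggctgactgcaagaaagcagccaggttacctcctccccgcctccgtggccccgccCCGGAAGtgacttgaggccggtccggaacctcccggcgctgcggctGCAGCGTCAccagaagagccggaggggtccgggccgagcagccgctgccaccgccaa
Psmb3: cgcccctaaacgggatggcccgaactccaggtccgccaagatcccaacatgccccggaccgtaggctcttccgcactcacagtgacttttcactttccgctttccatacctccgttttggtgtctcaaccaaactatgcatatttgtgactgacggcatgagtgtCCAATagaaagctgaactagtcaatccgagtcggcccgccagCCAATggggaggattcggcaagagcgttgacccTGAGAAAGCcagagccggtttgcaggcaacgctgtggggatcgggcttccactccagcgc
Psmb6: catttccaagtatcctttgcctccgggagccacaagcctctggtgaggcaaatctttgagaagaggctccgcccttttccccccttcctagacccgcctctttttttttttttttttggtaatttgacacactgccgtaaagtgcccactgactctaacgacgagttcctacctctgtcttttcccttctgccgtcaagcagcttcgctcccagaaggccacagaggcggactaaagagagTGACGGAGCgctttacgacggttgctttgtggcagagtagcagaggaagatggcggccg

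The ETS core CCGGAAG was found in the windows of Psmc6, Psmg3 and Psme4 and not in those of Psma3, Psmd1, Psmb3 or Psmb6. A RefSeq promoter was matched for 39 of the 47 genes, 3 of them with 2 windows each, which gave 42 windows. The 3 are Psma6, Psmc2 and Psme2, and both windows of each are counted. Those of Psme2 overlap and hold the same TGANNNNGC match, which is therefore counted in both. CCGGAAG was present in 16 of the 42 (38.1%), against 8.86% of all 32851 promoters of that length and 18.3% of the 10954 promoters of tested entries. It was present in 10 of 21 windows of genes that were lower in Pax5-Etv6 B-ALL, in 5 of 13 of genes that were not called and in 1 of 7 of genes that were higher, that of Psmc3ip; over the promoters of all tested entries the shares were 19.6%, 18.7% and 15.9%. TGANNNNGC was present in 24 of the 42 windows (57.1%; 41.3% of all promoters), namely in 13 of 21 of lower, 7 of 13 of uncalled and 3 of 7 of higher genes (44.2%, 43.2% and 41.0% over tested entries). CCAAT was present in 14 windows (33.3%; 37.4%), with 6, 5 and 2 in the same order (38.6%, 38.3% and 37.8%). CACGTG was present in 3 windows (7.14%; 7.15%), with 2, 1 and 0 (12.4%, 9.76% and 8.17%). No 2 matches of different motifs overlapped. A match describes the letters of the window, and binding was not analysed here.

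The alpha ring was lower in Pax5-Etv6 B-ALL in 6 of its 7 tested subunits, with Psma7 the exception, and none was higher. The counts of this and each following role stand against 29.7% lower and 21.9% higher of all entries tested. The median log2 fold change of the 7 was -1.10. Psma3 had 30.0, 26.7 and 21.9 TPM in Pax5-Etv6 replicates 1, 2 and 3 and 137 and 84.4 TPM in control replicates 1 and 2, the order used from here on, a 4.23-fold lower mean (log2 fold change -2.01 ± 0.26 SE, adjusted p = 0.00178). Every Pax5-Etv6 library lay below both controls, and the same held for the other 5 lower alpha subunits. Over all entries tested, the groups did not overlap, in either direction, in 72.2%. Psma4, whose name carries the overlap tag, had 88.2, 72.6 and 115 TPM against 528 and 254 TPM (-2.01 ± 0.34, adjusted p = 0.00436). The 2 controls differed from each other in this gene more than in any other tested proteasome gene (SD of the controls 49.6% of their mean). AY074887, the RefSeq gene that overlaps Psma4, had less than 1 TPM in every library.

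Psma6 and Psma2 were the next in size and much more even within groups. Psma6 had 260.4, 284 and 305 TPM against 684 and 624 TPM (-1.21 ± 0.14, adjusted p = 0.00133). Psma2 had 309, 289.5 and 319 TPM against 684 and 630.1 TPM (-1.10 ± 0.13, adjusted p = 0.00148). Psma5 fell from 93.1 ± 17.3 (SD, n = 2) to 45.6 ± 5.75 TPM (SD, n = 3) and Psma1 from 305 ± 74.7 to 160.3 ± 13.8 TPM (limma adjusted p = 0.00673 and 0.00878). Psma7, by contrast, had 639.7, 744 and 688 TPM against 699 and 702 TPM, so the groups overlapped (-0.02 ± 0.14, adjusted p = 0.899). The ring was uneven by these TPM values. Among its 7 tested subunits the highest stood 21.3- to 31.4-fold above the lowest in the Pax5-Etv6 libraries and 6.63- and 8.69-fold in the controls. In the Pax5-Etv6 libraries these were Psma7 and Psma3. TPM does not correct for reads lost to copies of a gene, which would change such ratios.

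Psma8, the form of the alpha-ring subunit Psma7 made in male germ cells, was not tested. No read of it was recovered in Pax5-Etv6 B-ALL, where 3 reads would be 0.135 to 0.195 TPM, and 13 and 105 reads in control replicates 1 and 2, or 0.369 and 5.07 TPM. Control replicate 2 carried most of its reads. Psmb11, the beta subunit of thymic epithelium, was not tested either, with 1 to 6 reads and at most 0.104 TPM in each library.

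The beta ring did not follow the alpha ring. Of its 7 tested subunits, Psmb3 and Psmb6 were higher, Psmb7 was lower and 4 were not called, with a median log2 fold change of 0.05. Psmb3, a structural subunit, had 553, 525 and 535 TPM against 220.0 and 257 TPM, a 2.25-fold higher mean (1.17 ± 0.14, adjusted p = 0.00135). All 3 Pax5-Etv6 libraries were above both controls and within a narrow range.

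The 3 catalytic subunits of the standard proteasome went different ways. Psmb6, with the caspase-like site, had 644, 693 and 636 TPM against 306 and 423 TPM (0.87 ± 0.18, adjusted p = 0.00826). Psmb7, with the trypsin-like site, had 379, 343 and 407 TPM against 642 and 551 TPM (-0.66 ± 0.15, adjusted p = 0.0122). Neither gene overlapped between the groups. The call of Psmb7 was lost without Pax5-Etv6 replicate 2 (adjusted p = 0.0550) or control replicate 1 (adjusted p = 0.0595, with 0.0106 to 0.0595 over all alternatives). Psmb5, the chymotrypsin-like subunit and main target of bortezomib, had 422, 455 and 396 TPM against 262 and 367 TPM, not a called difference (0.45 ± 0.18, adjusted p = 0.0806). It passed the threshold without control replicate 2 (adjusted p = 0.0217, in a range up to 0.288), and its name carries the overlap tag. Mir686, the RefSeq gene that overlaps Psmb5, was listed at 0 in every library.

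Psmb1, Psmb2 and Psmb4 overlapped between the groups, at 589 ± 29.1, 412 ± 27.2 and 662 ± 49.6 TPM (SD, n = 3) in the Pax5-Etv6 group against 568 ± 18.9, 429.5 ± 7.88 and 734 ± 217 TPM (SD, n = 2) in the control group. The summed mRNA of the beta-ring genes taken here was 2.39-, 2.27- and 2.19-fold that of the alpha ring in Pax5-Etv6 replicates 1, 2 and 3. It was 0.944- and 1.32-fold in control replicates 1 and 2. This sum leaves out Psmb8, Psmb9 and Psmb10, which belong to the same ring. Among the 7 tested beta subunits the spread was the smaller one in Pax5-Etv6 B-ALL. The highest stood 1.61- to 2.02-fold above the lowest, against 2.92- and 3.45-fold in the controls. RefSeq lists pseudogenes under the names of Psma5, Psmb5, Psmb6 and Psmb7, so the levels of these 4 genes are uncertain where reads were shared with such copies. Copies listed under other names were not searched for, so the levels of the other proteasome genes may be uncertain in the same way.

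**Figure D2:**
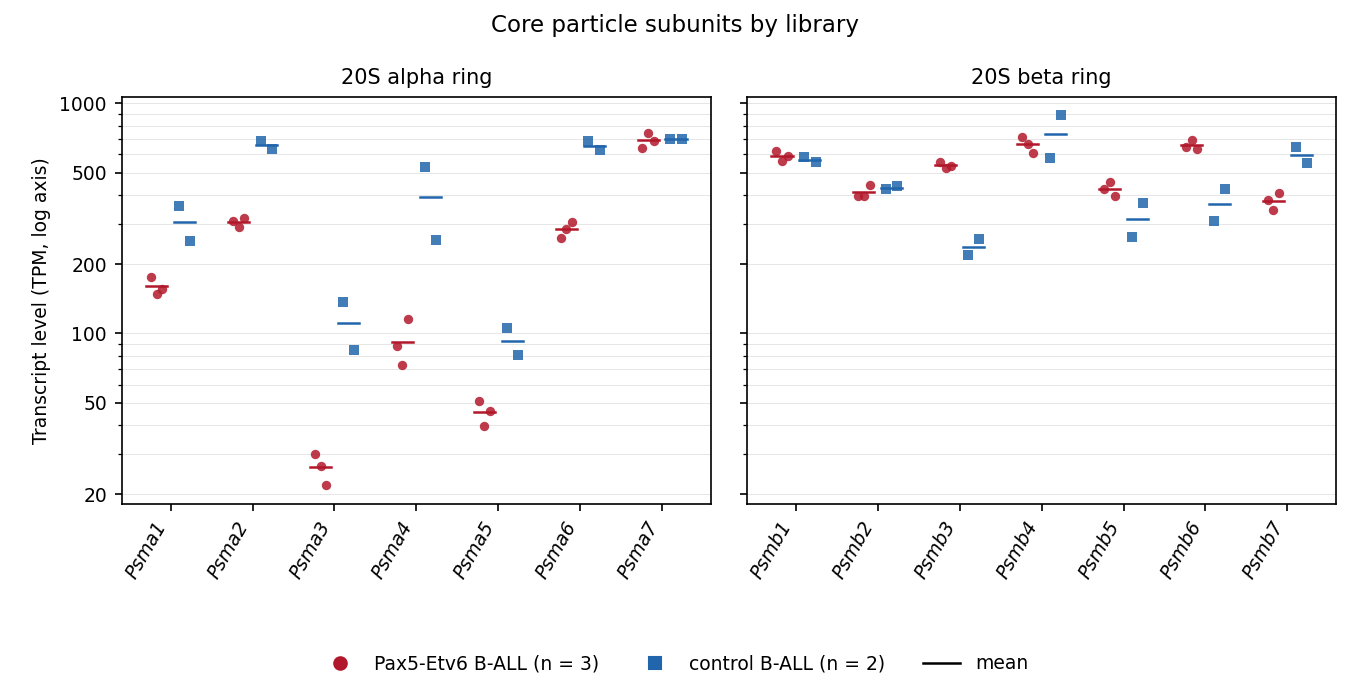
Level in TPM (log axis) of the 7 tested alpha-ring and 7 tested beta-ring subunits in each library; circles are the 3 Pax5-Etv6 B-ALL libraries, squares the 2 control B-ALL libraries and lines the group means. In 6 alpha subunits all circles lie below both squares, while Psmb3 and Psmb6 show the opposite order and Psma7, Psmb1, Psmb2 and Psmb4 overlap.

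The ATPase ring of the regulatory particle was split. Psmc6 and Psmc2 were lower in Pax5-Etv6 B-ALL, Psmc3, Psmc4 and Psmc5 were higher, and Psmc1 was not called. Psmc6 had 58.1, 59.97 and 64.4 TPM against 279 and 166 TPM (-1.80 ± 0.23, adjusted p = 0.00183). Psmc2 had 164, 158 and 184 TPM against 485 and 509 TPM (-1.55 ± 0.14, adjusted p = 0.000643). The groups stood well apart in both, and the 2 controls were close to each other in Psmc2 only.

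Psmc4 had 393, 398 and 419 TPM against 232 and 264 TPM (0.70 ± 0.13, adjusted p = 0.00664). Psmc3 had 446, 505 and 508 TPM against 288 and 328 TPM (0.66 ± 0.14, adjusted p = 0.0103). Psmc5 had 442, 460.4 and 518 TPM against 355 and 338 TPM (0.45 ± 0.14, adjusted p = 0.0356). In each of the 3 the Pax5-Etv6 libraries were above both controls, although the call of Psmc5 was lost in 6 of 15 alternatives, among them the omission of Pax5-Etv6 replicate 2 (adjusted p = 0.107) or 3 (0.131, the highest of a range from 0.0157) and of control replicate 1 (0.0740) or 2 (0.0846). Psmc1 had 236 ± 23.7 against 276 ± 33.9 TPM, with overlap. The highest ATPase transcript stood 7.69- to 8.42-fold above the lowest in Pax5-Etv6 B-ALL and 2.09- and 3.08-fold in the controls.

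Of the 11 other subunits of the regulatory particle, 7 were lower in Pax5-Etv6 B-ALL, none was higher and 4 were not called (median -0.61). Psmd1, the scaffold of the base, had 131, 113 and 135 TPM against 292 and 249.7 TPM (-1.10 ± 0.15, adjusted p = 0.00233). Psmd7, the lid partner of the deubiquitinase Psmd14, had 223, 229 and 237 TPM against 464 and 393 TPM (-0.89 ± 0.14, adjusted p = 0.0033). Psmd6, another lid subunit, had 153, 154 and 152 TPM against 259 and 253 TPM (-0.74 ± 0.12, adjusted p = 0.00416). These 3 did not overlap between the groups, and in Psmd6 the libraries of each group were nearly equal.

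The lid subunits Psmd12 and Psmd8 fell by 0.68 and 0.61, Psmd14 by 0.74 and the base subunit Psmd2 by 0.43 on the log2 scale (limma adjusted p = 0.0104, 0.0248, 0.0350 and 0.0450). Psmd14, which removes ubiquitin chains at the entry of the proteasome, had 146, 136 and 149 TPM against 310.5 and 185 TPM, so that control replicate 1 carried most of the difference. The call was lost for Psmd8 in 6 of 15 alternatives (adjusted p 0.0221 to 0.0870 over them), for Psmd14 in 9 (0.00705 to 0.0866) and for Psmd2 in 10 (0.0435 to 0.176). Among the omissions, these were Pax5-Etv6 replicates 2 and 3 and control replicate 2 for Psmd8 (0.0794, 0.0826 and 0.0870), all 3 Pax5-Etv6 replicates and control replicate 1 for Psmd14 (0.0525, 0.0866, 0.0745 and 0.0787), and all 3 Pax5-Etv6 replicates and control replicate 2 for Psmd2 (0.0661, 0.176, 0.108 and 0.108).

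Psmd4, the ubiquitin receptor Rpn10, had 357, 370.0 and 376 TPM against 213 and 308 TPM (0.52 ± 0.18, adjusted p = 0.0539), with the Pax5-Etv6 libraries above both controls. It passed the threshold in 6 of 15 alternatives, among them the omission of control replicate 2 (adjusted p = 0.0106, in a range up to 0.141). Psmd13 had 266 ± 10.2 against 205 ± 25.1 TPM (adjusted p = 0.0612), and passed it in 4 alternatives, among them the omission of control replicate 1 (adjusted p = 0.0377, in a range from 0.0217 to 0.204). Psmd3 had 473 ± 11.8 against 427 ± 82.7 TPM and Psmd11 111 ± 7.83 against 127 ± 0.395 TPM (adjusted p = 0.429 and 0.273).

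**Figure D3:**
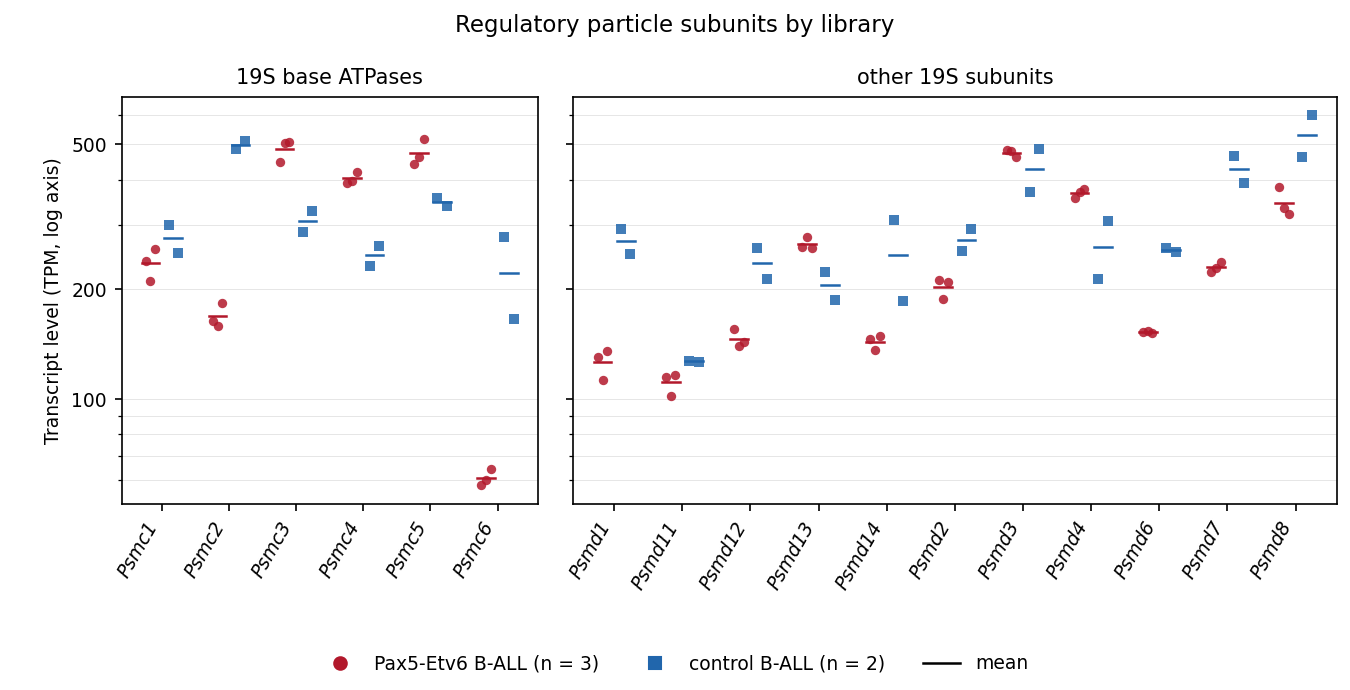
Level in TPM (log axis) of the 6 ATPases and 11 other subunits of the regulatory particle in each library; circles are the 3 Pax5-Etv6 B-ALL libraries, squares the 2 control B-ALL libraries and lines the group means. Psmc2 and Psmc6 have circles below the squares and Psmc3, Psmc4 and Psmc5 circles above them, and Psmd6 has nearly equal libraries within each group.

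Of the 7 assembly factors, 5 were lower in Pax5-Etv6 B-ALL, none was higher and 2 were not called (median -0.92). Psmg3, a chaperone of alpha-ring assembly, had 97.7, 111 and 97.6 TPM against 283 and 365 TPM (-1.64 ± 0.16, adjusted p = 0.000892). Psmg2, a member of the Psmg1-Psmg2 chaperone pair, had 52.3, 70.3 and 74.5 TPM against 167 and 147 TPM (-1.26 ± 0.20, adjusted p = 0.00328). Psmd5, a chaperone of the ATPase ring, had 45.2, 49.2 and 43.3 TPM against 108 and 93.4 TPM (-1.11 ± 0.16, adjusted p = 0.00233). All Pax5-Etv6 libraries lay below both controls in these 3 genes.

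Psmg1, the partner of Psmg2, fell from 136 ± 12.8 to 75.3 ± 5.35 TPM and the ATPase chaperone Psmd9 from 87.2 ± 15.1 to 45.3 ± 1.90 TPM (limma adjusted p = 0.00494 and 0.00591). Psmg4, which pairs with Psmg3, had 150.1, 141 and 127 TPM against 121 and 168 TPM (-0.03 ± 0.18, adjusted p = 0.883), and the ATPase chaperone Psmd10 (gankyrin) had 32.5, 31.5 and 39.4 TPM against 40.7 and 33.4 TPM (-0.10 ± 0.20, adjusted p = 0.683). Both overlapped between the groups. The summed mRNA of the 7 factors was 0.0934 to 0.101 of that of the core-particle genes taken here in the Pax5-Etv6 libraries. It was 0.149 and 0.172 of it in the controls. Psmb8, Psmb9 and Psmb10 are not in the core-particle sum, and Pomp, described below, is not among the 7 factors.

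The activators held the extremes of the whole set. Psme4, which encodes the large activator PA200, was the most strongly lowered of the 45 genes, with 37.7, 25.3 and 32.8 TPM against 219 and 130.4 TPM, a 5.48-fold lower mean (-2.39 ± 0.28, adjusted p = 0.0013). Psme1, the alpha chain of the PA28 activator that interferon-gamma induces, was higher, with 715, 671 and 773 TPM against 411 and 506 TPM (0.65 ± 0.16, adjusted p = 0.0147). Its partner Psme2, the beta chain, had 92.4, 92.5 and 104 TPM against 83.5 and 106 TPM, with overlap (0.03 ± 0.16, adjusted p = 0.888). The level of Psme1 was 7.26- to 7.74-fold that of Psme2 in Pax5-Etv6 B-ALL and 4.93- and 4.77-fold in the controls. The level of Psme2 and this ratio are uncertain, since reads of Psme2 can be assigned to its near-identical copy Psme2b or lost. The call of Psme1 was lost without Pax5-Etv6 replicate 3 (adjusted p = 0.0556) or control replicate 1 (0.0659, the highest of a range from 0.0101). The name of Psme1 carries the overlap tag, and Emc9, the RefSeq gene that overlaps it, had 4.36, 6.29 and 5.12 TPM against 0.0597 and 0.305 TPM. Marker sums of other cells were higher in Pax5-Etv6 B-ALL too, at 177, 595 and 216 against 21.5 and 69.2 TPM for macrophages, 253, 34.2 and 144 against 0.586 and 0.622 TPM for neutrophils and 4.99, 29.2 and 37.1 against 0.334 and 0.284 TPM for T cells, and their part in the level of Psme1 was not tested.

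Psme2b, a copy of Psme2, had the largest rise, with 44.8, 17.0 and 23.8 TPM against 1.72 and 3.00 TPM, or 12.1-fold by the means (3.05 ± 0.44, adjusted p = 0.00249). Reads of the near-identical Psme2 can be assigned to it or lost, its name carries the overlap tag, and 9930111J21Rik1, the RefSeq gene that overlaps it, was also the higher in the Pax5-Etv6 libraries (12.3, 3.22 and 4.34 against 0.460 and 1.69 TPM), so its level is uncertain. Psme3, the nuclear activator PA28-gamma, had 385, 349.8 and 339.9 TPM against 457 and 455 TPM, not a called difference (-0.35 ± 0.13, adjusted p = 0.0663). Psmf1, the inhibitor PI31, had 49.6, 43.4 and 52.2 TPM against 34.0 and 45.4 TPM (0.29 ± 0.20, adjusted p = 0.252). Psmc3ip, the meiotic gene caught by its name, had 90.7, 112 and 124 TPM against 45.8 and 53.6 TPM (1.11 ± 0.19, adjusted p = 0.00428), and its overlapping neighbour Mlx had 77.3 to 92.8 TPM against 51.6 and 58.9 TPM.

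**Figure D4:**
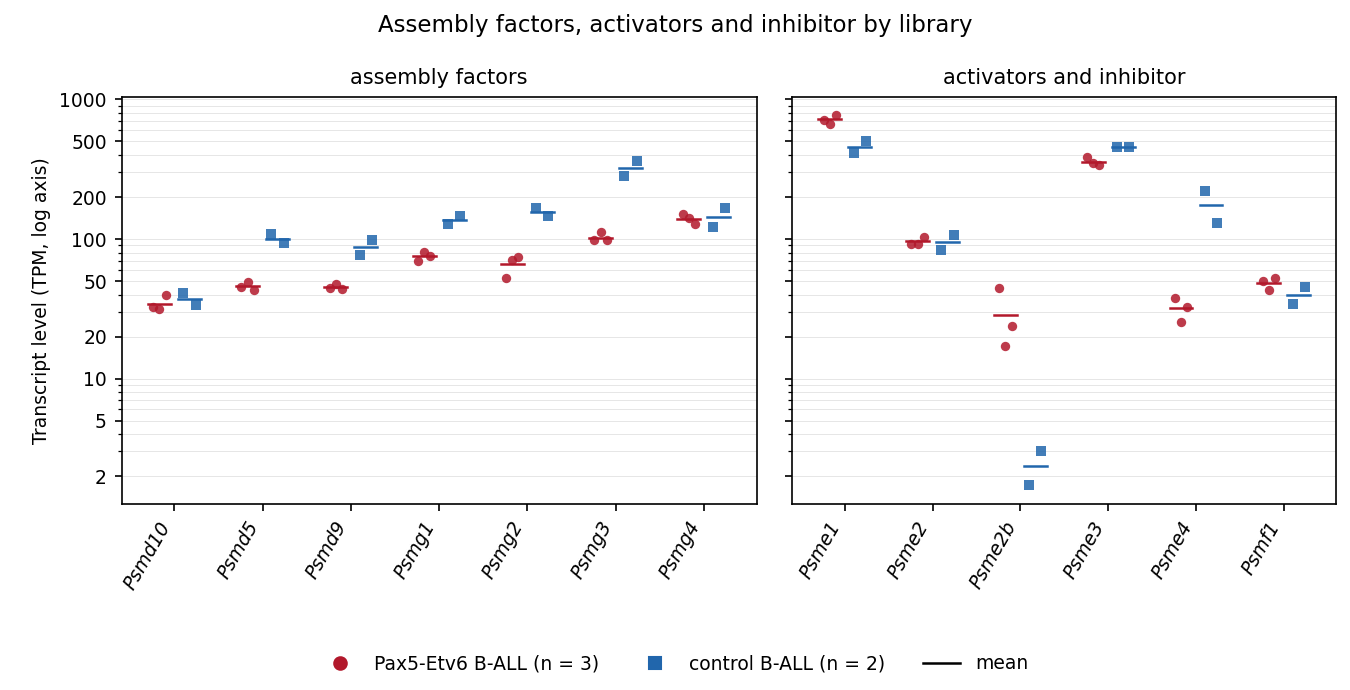
Level in TPM (log axis) of the 7 assembly factors and the 6 activators and inhibitors (Psme genes and Psmf1) in each library; circles are the 3 Pax5-Etv6 B-ALL libraries, squares the 2 control B-ALL libraries and lines the group means. Psmg1, Psmg2, Psmg3, Psmd5, Psmd9 and Psme4 have all circles below the squares, and Psme1 and Psme2b all circles above them.

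Replicates of Pax5-Etv6 B-ALL were close to each other in most of the tested proteasome genes, with a median SD of 7.10% of the mean, and no library stood at 1 end throughout: replicates 1, 2 and 3 were the highest of the 3 in 14, 9 and 22 genes. The controls were less even, with a median of 12.3%. Control replicate 1 lay farther from the Pax5-Etv6 libraries than replicate 2 in 23 of the 30 called genes (76.7%), and in 76.2% of all called entries. Among the lower genes it was the higher control in 16 of 22, with the widest gaps between the controls, relative to their mean, in Psma4, Psmc6, Psme4, Psmd14 and Psma3, and among the higher genes it was the lower control in 7 of 8.

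Genes that complete or serve the proteasome were drawn from 5 further lists. Their counts stand against 29.7% lower and 21.9% higher of all entries tested. Of 8 tested further parts and maturation factors, 6 were lower in Pax5-Etv6 B-ALL, none was higher and 2 were not called (median -1.67). Usp14, a deubiquitinase bound to the base, had 18.4, 18.5 and 15.7 TPM against 126 and 72.7 TPM (-2.39 ± 0.27, adjusted p = 0.00118), although its name carries the overlap tag. Uchl5, the other deubiquitinase of the base, had 47.5, 46.0 and 44.1 TPM against 340.3 and 175 TPM (-2.39 ± 0.28, adjusted p = 0.00132). Pomp, the factor that matures the beta ring and was named here after its values were seen, had 404, 361 and 384 TPM against 989.9 and 1048 TPM (-1.41 ± 0.14, adjusted p = 0.000772). Adrm1, the ubiquitin receptor that anchors Uchl5, was likewise named for contrast and had 145, 146 and 139.5 TPM against 106 and 131 TPM (0.28 ± 0.15, adjusted p = 0.157). It passed the threshold without control replicate 2 only (adjusted p = 0.0346, in a range up to 0.367).

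Of 8 regulators of proteasome genes, 1 was higher, 1 was lower and 6 were not called (median 0.06). Nfe2l1, the transcription factor that raises proteasome genes when proteasome activity is short, was named after its values were seen and had 77.0, 76.2 and 83.8 TPM against 80.8 and 90.5 TPM (-0.11 ± 0.14, adjusted p = 0.531). Ngly1, the glycanase that processes Nfe2l1, was higher (0.88 ± 0.25, adjusted p = 0.0262), and Akirin2, which brings proteasomes into the nucleus, was lower (-0.50 ± 0.15, adjusted p = 0.0303). The call of Ngly1 was lost in 4 of the 14 alternatives that tested it, without Pax5-Etv6 replicate 2 (adjusted p = 0.0633) or 3 (0.0721) or control replicate 1 (0.0934) or 2 (0.1296), in a range from 0.00994. The call of Akirin2 was lost in 7 of 14, among them the omission of Pax5-Etv6 replicate 1 (0.0728), 2 (0.0886) or 3 (0.0901) or control replicate 2 (0.0678), in a range from 0.0294. The deposited names of Ngly1 and Akirin2 carry the overlap tag.

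Of 5 ubiquitin and E1 enzyme genes, 1 was higher, 2 were lower and 2 were not called (median -0.09). Ubb, a polyubiquitin gene, had 639, 725 and 713 TPM against 195 and 225 TPM (1.72 ± 0.14, adjusted p = 0.000602). The Pax5-Etv6 libraries stood far above both controls in Ubb. Uba6, the alternative ubiquitin E1 enzyme, had 9.05, 7.90 and 4.68 TPM against 68.2 and 43.3 TPM (-2.79 ± 0.34, adjusted p = 0.00153), and Rps27a, a fusion of ubiquitin with a ribosomal protein whose name carries the overlap tag, had a log2 fold change of -1.13 ± 0.32 (adjusted p = 0.0271). The call of Rps27a was lost in 7 of the 14 alternatives that tested it, among them the omission of Pax5-Etv6 replicate 2 (adjusted p = 0.0739) or 3 (0.0722) or control replicate 1 (0.0726) or 2 (0.168), in a range from 0.00779. Reads of Rps27a can be shared with pseudogene copies.

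Of 10 shuttle factors and parts of the p97 machinery, which bring ubiquitinated proteins to the proteasome, 1 was higher, 3 were lower and 6 were not called (median -0.06). The share of all entries tested was 21.9% higher and 29.7% lower. The shuttle factor Rad23b had 195, 155 and 145 TPM against 339 and 297 TPM (-0.95 ± 0.17, adjusted p = 0.00557), a call lost without control replicate 1 (adjusted p = 0.0516, with 0.00349 to 0.0516 over all alternatives). Ubqln4 had 73.8, 92.7 and 87.5 TPM against 125 and 183 TPM (-0.83 ± 0.21, adjusted p = 0.0167), a call lost without control replicate 2 (adjusted p = 0.0664, with 0.0126 to 0.0664 over all alternatives). Ubqln2 had 58.2, 61.8 and 51.1 TPM against 20.02 and 33.2 TPM (1.11 ± 0.25, adjusted p = 0.011).

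The immunoproteasome subunits, which replace the standard catalytic subunits under interferon-gamma, were all 3 higher in Pax5-Etv6 B-ALL (median 1.34). Psmb9 had 473, 659 and 705 TPM against 84.5 and 128 TPM (2.53 ± 0.25, adjusted p = 0.000858), and Psmb10 had 306, 313 and 320.4 TPM against 105 and 143 TPM (1.34 ± 0.17, adjusted p = 0.00161). The summed mRNA of Psmb8, Psmb9 and Psmb10 was 1.04-, 1.19- and 1.35-fold that of Psmb5, Psmb6 and Psmb7 in Pax5-Etv6 replicates 1, 2 and 3, and 0.386- and 0.479-fold in control replicates 1 and 2. Psmb9 stood at 0.735 to 1.11 of the level of Psmb6, which it replaces, against 0.276 and 0.302, and Psmb10 at 0.786 to 0.914 of the level of Psmb7 against 0.164 and 0.260. Psmb8 stood at 1.71 to 2.32 of the level of Psmb5 against 1.06 and 1.01. The macrophage, neutrophil and T-cell marker sums given beside Psme1 were higher in the same group, and their part in these levels was not tested.

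**Figure D5:**
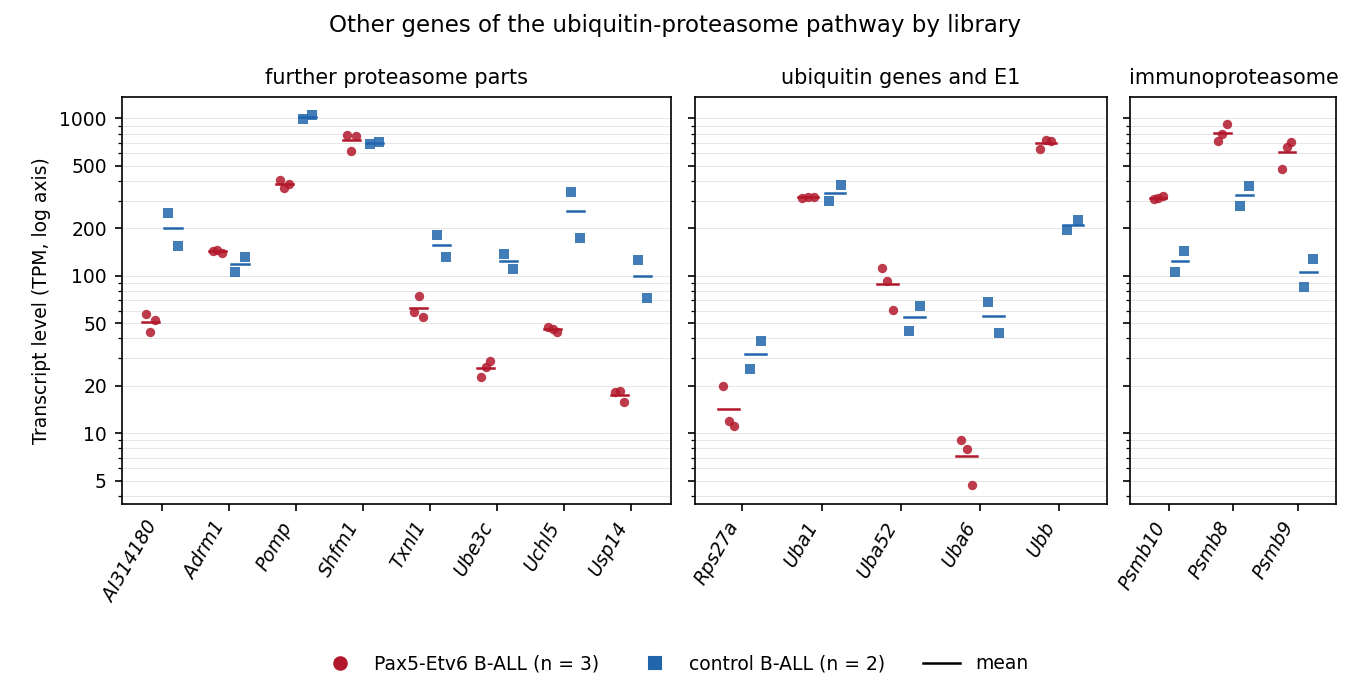
Level in TPM (log axis) of the 8 further proteasome parts, 5 ubiquitin and E1 genes and the 3 immunoproteasome subunits in each library; circles are the 3 Pax5-Etv6 B-ALL libraries, squares the 2 control B-ALL libraries and lines the group means. Circles lie below the squares for Pomp, Uchl5, Usp14 and Uba6 and above them for Ubb, Psmb8, Psmb9 and Psmb10.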

How the data were processed

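Polyadenylated RNA of 5 mouse B-ALL samples was sequenced, 3 Pax5-Etv6 and 2 control. The authors deposited TPM values, per the file headers, in 1 table per library that sums to 1000000 over 24726 entries. The tools HTSeq 0.5.3 and DESeq2 1.4.1 and the mouse build mm9 are named, per the submitters' processing notes, without their roles; for aligner and gene models, the sources used here give nothing. ChIP-seq samples (2) were not analysed here.

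Testing used limma 3.58.1 (R 4.3.3) on log2(TPM + 1) for entries that reached 1 TPM in at least 2 libraries, two-sided, with a mean-variance trend, 3 residual degrees of freedom and no covariate, with Benjamini-Hochberg adjustment over all 11805 entries tested; this scale understates the change of low genes. Fold changes are given ± SE and means ± SD. Whole reads were recovered from the TPM as the smallest whole numbers in the right ratios: all 16538 entries above 0 in at least 2 libraries gave whole reads within 1e-06. The fit was tested on simulated data. Replicates were numbered in accession order. Members and lists were chosen with earlier results of these data known. Full values per library were given for up to 3 called genes in each direction and role, the catalytic subunits, Psme1, Psme2 and untested members, and for up to 2 called genes per list and direction; others were added for contrast after their values were seen. Paaf1, of the further parts, matched no entry, and 2 genes of the lists are not reported here. Alternatives covered the pseudocount (0.1 or 5 TPM), the filter (none, or 5 TPM), 3 other scalings, no trend, voom on recovered reads, omission of tagged entries and of each library in turn.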

Additional observations from a re-analysis of the deposited data

How the results depend on the processing

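Over 15 alternatives the number of proteasome genes lower in Pax5-Etv6 B-ALL was 18 to 22 and the number higher 5 to 10, and the median log2 fold change over tested proteasome genes stayed negative, at -0.52 to -0.24. Over the alternatives that kept both controls, 32% to 56.7% of all entries tested were called, with 2789 to 3505 lower and 1863 to 3069 higher. The median over all entries was -0.15 to 0.01 in these alternatives. Without tagged entries 5 proteasome genes were higher, since 3 of the 8 carry a tag, and 21 were lower. Without control B-ALL replicate 1, 3635 entries were called in all, against 6099. The omission of 1 library at a time left 6 to 9 proteasome genes higher and 18 to 20 lower, with 3635 to 6305 entries called in all and a median of -0.40 to -0.31. Of the 30 called proteasome genes, 24 kept their call in every alternative that tested them (6 higher and 18 lower), and 3 of the 15 uncalled ones gained a call in at least 1; no called gene changed direction in any. Voom on recovered reads moved the median of all entries from -0.11 to 0.01 and that of the proteasome genes to -0.24, and called 10 higher and 19 lower. No paired analysis was possible because the labels give no replicate numbers that groups share. Depth did not limit the tested genes, but 3 against 2 libraries limit the precision of every fold change.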
